A study of Mus musculus with 24 samples.

Results

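The genes described here are the ligands and receptors of the tumour necrosis factor (TNF) superfamily. Members were the rows of the count table whose mouse symbol began with Tnfsf or Tnfrsf, together with Tnf, Lta, Ltb, Ltbr, Fas, Fasl, Cd40, Cd40lg, Cd27 and Cd70. This gave 43 of 51912 rows: 18 ligand genes, 24 receptor genes and 1 antisense RNA, Tnfsf13os, which makes no ligand. Tnfsf13os was kept apart from both classes but is included in the counts and medians over all members. Whole ears of C57BL/6 mice were taken 5 days or 1 month after the first of a series of daily intraperitoneal tamoxifen injections, which all groups received. The 4 groups of 6 samples were wild type and Card14 E138A at day 5, and wild type and Card14 E138A at 1 month. The E138A allele is a lox-stop-lox knock-in at the mouse Card14 locus, switched on when tamoxifen activates CreERT2. In keratinocytes CARD14 serves as a signalling scaffold upstream of NF-κB, and gain-of-function mutations of the human gene are linked to psoriasis. The labels used here do not give the promoter that drives CreERT2 or say whether the wild-type mice carried it, nor do they give ages or say that the samples were separate animals. The p-values therefore measure the spread between these samples, which may in part be technical.

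TNF superfamily ligands are mostly trimeric membrane proteins that can be shed, and each binds 1 or a few receptors of the matching receptor family. Receptors with a death domain can start apoptosis or necroptosis, receptors without one recruit TRAF adaptors and activate NF-κB and MAP kinases, and decoy receptors bind ligand without signalling. In skin, TNF is a central cytokine of psoriatic inflammation and a drug target, and several other members act as costimulators between T cells and antigen-presenting cells.

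The libraries held between 15661515 and 16998900 expected counts in wild-type ears at day 5 and between 16803680 and 18852963 in E138A ears. At 1 month they held 19255028 to 23904976 in wild-type and 20608274 to 23022149 in E138A ears. Card14 itself ranged at day 5 from 34.6 to 54.2 CPM (counts per 1000000 of the scaled library total) in the wild type and from 35.1 to 65.4 CPM in E138A ears, and at 32.9 to 49.9 and 9.93 to 25.3 CPM at 1 month. A gene count cannot show which allele was read. In 3 libraries of 1 month (wild-type replicate 2, E138A replicates 1 and 6) the deviation of a gene's level from its mean over all libraries followed the gene's GC content, with a correlation above 0.4. These 3 and E138A replicate 2 of 1 month also had the lowest summed level of Y-linked genes. Where leaving out these 3 or these 4 libraries ended a call of a genotype difference at 1 month, the value without them is given beside it. In whole-tissue RNA, fewer cells of a type and less RNA per cell cannot be told apart.

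At both times the members were higher in E138A ears far more often than lower. Of the 39 members that passed the filter on low counts, 21 were called higher and 3 lower at day 5, where called means an adjusted p below 0.05 over all 17287 genes tested. Over all genes, 20.7% were called higher and 20.2% lower at day 5. The 1-month comparison called 25 members higher and 3 lower, where 25.5% of all genes were higher and 21.5% lower. The median log2 fold change over the tested members was 0.79 at day 5 and 0.68 at 1 month, beside -0.02 and 0.05 over all genes tested. Among ligands, 8 of 14 tested were called higher and 0 lower at day 5, and 9 higher and 1 lower at 1 month. Among receptors, 12 of 24 were higher and 3 lower at day 5, and 15 higher and 2 lower at 1 month. The median log2 fold change of ligands was 0.93 at day 5 and 0.96 at 1 month, and that of receptors 0.50 and 0.65. Leaving out the 3 libraries with a GC correlation above 0.4 gave 19 members higher and 2 lower at 1 month, where 24.8% of all genes were called higher and 24% lower.

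**Figure D1:**
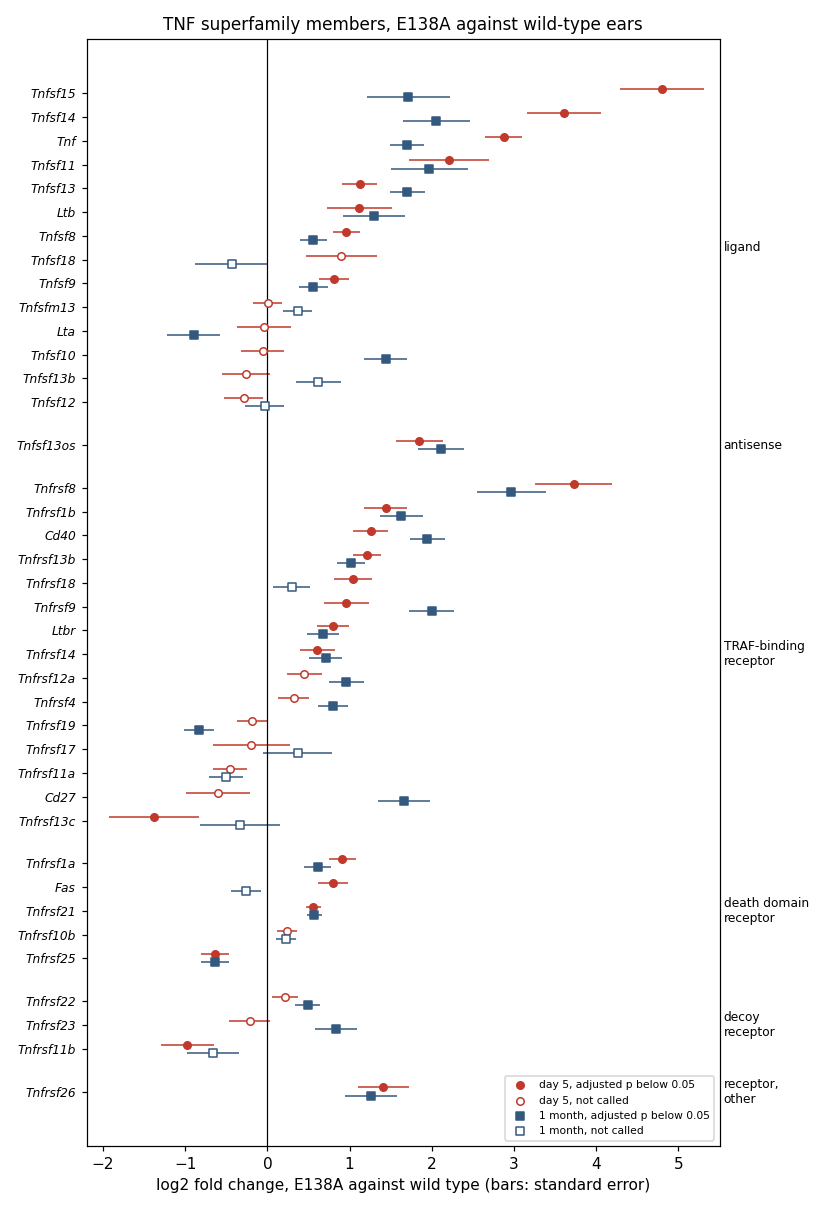
Log2 fold change (x axis, bars are standard errors) of E138A against wild-type ears for the 39 tested members, grouped by role, at day 5 (red circles) and 1 month (blue squares). Filled symbols passed an adjusted p of 0.05, as 24 members did at day 5 and 28 at 1 month, and Tnfsf15 (4.80), Tnfrsf8 (3.73), Tnfsf14 (3.61) and Tnf (2.87) lie farthest to the right at day 5.

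The groups separated completely for many of these genes. At day 5, 6 of 14 ligands and 10 of 24 receptors had all 6 E138A libraries above all 6 wild-type libraries, which held for 17.9% of all genes. At the same time 1 receptor, Tnfrsf11a, had all E138A libraries below, which held for 16.4% of all genes. At 1 month, 5 ligands and 8 receptors had all E138A libraries above (12.2% of all genes), and 1 receptor, Tnfrsf25, had them all below (9.05%).

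Among the ligands, Tnf, the founding cytokine of the family, ranged from 1.21 to 1.79 CPM in wild-type ears at day 5 with a median of 1.42, and from 7.12 to 13.1 CPM in E138A ears with a median of 11.3. At 1 month the wild-type range was 1.37 to 3.00 CPM (median 1.80) and the E138A range 4.42 to 10.6 CPM (median 5.51). The groups did not overlap at either time, and the library lowest at day 5, E138A replicate 1, still stood clear of every wild-type library. Tnf was 7.33-fold higher at day 5, a log2 fold change of 2.87 ± 0.22 (standard error, SE, 6 libraries against 6) with an adjusted p of 1.55e-09. At 1 month it was 3.24-fold higher (1.70 ± 0.21, adjusted p = 6.39e-07).

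Lta and Ltb, the lymphotoxin genes, flank Tnf on chromosome 17, with Ltb at chr17:35194439-35196320, Tnf at chr17:35199381-35202007 and Lta at chr17:35203165-35205351 (GRCm38). The 3 neighbours moved differently. Ltb, whose product anchors lymphotoxin at the membrane, rose from a median of 1.19 CPM (0.784 to 1.63) to 2.13 CPM (1.89 to 4.07) at day 5, a log2 fold change of 1.12 ± 0.39 (adjusted p = 0.0255). Its groups did not overlap at day 5, but the call was lost when wild-type replicate 5, E138A replicate 2 or E138A replicate 4 was left out. At 1 month Ltb overlapped between wild-type (0.587 to 2.65, median 1.55 CPM) and E138A ears (1.51 to 8.28, median 3.74 CPM), with a log2 fold change of 1.30 ± 0.38 (adjusted p = 0.00635). That value was 0.66 (adjusted p = 0.163) without the 3 libraries with a GC correlation above 0.4, and 0.25 (adjusted p = 0.602) without the 4 that stood apart in Y-linked genes. Lta, which encodes the soluble lymphotoxin, was not called at day 5 (-0.04 ± 0.33, adjusted p = 0.961), with medians of 0.384 CPM (0.289 to 0.740) in wild-type and 0.432 CPM (0.178 to 0.665) in E138A ears. At 1 month Lta fell from a median of 0.532 CPM (0.274 to 0.684) to 0.257 CPM (0.167 to 0.369), by 0.90 ± 0.33 on the log2 scale (adjusted p = 0.0259). The 1-month groups of Lta overlapped, and the call was lost without wild-type replicate 3, E138A replicate 1 or E138A replicate 3, and without the libraries set apart by GC (adjusted p = 0.0691) or by Y-linked genes (adjusted p = 0.0765).

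Tnfsf15, which encodes TL1A, a costimulator of T cells and innate lymphoid cells, had the largest fold change of the tested members at day 5. It lay between 0.464 and 0.868 CPM in wild-type ears (median 0.580) and between 9.05 and 39.2 CPM in E138A ears (median 13.1), with no overlap. The difference was 27.8-fold, a log2 fold change of 4.80 ± 0.51 (adjusted p = 1.41e-07). At 1 month the ranges were 0.0411 to 0.782 CPM (median 0.440) and 0.260 to 2.34 CPM (median 1.59), with a log2 fold change of 1.72 ± 0.51 (adjusted p = 0.00706). The overlap at 1 month came from E138A replicates 1 and 6, the 2 E138A libraries with a GC correlation above 0.4, and without the 3 libraries of that kind the log2 fold change was 1.90 (adjusted p = 0.000512).

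Tnfsf14, which encodes LIGHT, a ligand of Ltbr and Tnfrsf14, ranged from 0.175 to 0.464 CPM (median 0.279) in wild-type and from 1.28 to 6.88 CPM (median 3.52) in E138A ears at day 5. At 1 month it ranged from 0.299 to 0.885 CPM (median 0.432) and from 1.30 to 4.22 CPM (median 1.85). The groups did not overlap at either time, and the log2 fold changes were 3.61 ± 0.45 (adjusted p = 1.15e-06) and 2.05 ± 0.41 (adjusted p = 0.000208). Tnfsf14 lies beside Tnfsf9 and Cd70 on chromosome 17. Tnfsf9, the ligand of the costimulatory receptor 4-1BB, was called higher with log2 fold changes of 0.81 at day 5 and 0.56 at 1 month, and the second call was lost without E138A replicate 6 and without the libraries set apart by GC (0.30, adjusted p = 0.21) or by Y-linked genes (0.23, adjusted p = 0.378). Cd70 had 3 counts over all 24 libraries, all in E138A ears, and 0 counts in the wild-type libraries, which allows up to 0.03 CPM at day 5 and 0.0221 CPM at 1 month for counting error only.

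Tnfsf11, which encodes RANKL, the factor that drives osteoclast formation, was higher at both times. Its ranges were 0.117 to 0.725 CPM (median 0.208) in wild-type and 0.534 to 3.61 CPM (median 1.06) in E138A ears at day 5, and 0.0821 to 0.513 CPM (median 0.343) and 0.730 to 1.93 CPM (median 1.18) at 1 month. The day 5 groups overlapped and the 1-month groups did not, with log2 fold changes of 2.21 ± 0.49 (adjusted p = 0.000888) and 1.97 ± 0.47 (adjusted p = 0.00116).

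Tnfsf13, a ligand gene of B cell survival, lies beside Tnfsf12 on chromosome 11, and the genes Tnfsfm13 and Tnfsf13os overlap both. Tnfsf13, which encodes APRIL (chr11:69682846-69685784), rose from 1.96 to 3.65 CPM (median 2.42) to 3.86 to 7.10 CPM (median 5.75) at day 5, and from 2.39 to 4.70 CPM (median 3.09) to 8.17 to 16.7 CPM (median 9.36) at 1 month. The groups were apart at both times, with log2 fold changes of 1.12 ± 0.21 (adjusted p = 0.000187) and 1.70 ± 0.21 (adjusted p = 5.06e-07). The antisense RNA Tnfsf13os (chr11:69682138-69691141) was also higher, by 1.85 ± 0.29 (adjusted p = 1.96e-05) and 2.12 ± 0.28 (adjusted p = 1.44e-06). Its medians were 0.739 CPM (0.493 to 1.05) in wild-type and 3.19 CPM (1.19 to 3.46) in E138A ears at day 5, and 0.684 CPM (0.484 to 1.33) and 3.19 CPM (2.30 to 4.18) at 1 month, again with no overlap. Tnfsf12, which encodes TWEAK (chr11:69686250-69695849), was not called at either time (-0.29 ± 0.24, adjusted p = 0.361, and -0.03 ± 0.23, adjusted p = 0.922). Tnfsf12 ranged from 12.6 to 15.0 CPM (median 13.4) in wild-type and from 8.31 to 15.3 CPM (median 11.2) in E138A ears at day 5, and from 9.23 to 31.9 (median 17.2) and 11.9 to 28.2 CPM (median 15.3) at 1 month. Tnfsfm13, a read-through model over Tnfsf12 and Tnfsf13, was not called either (0.00 and 0.37). The sources used here do not state whether counting was strand-specific, so reads of Tnfsf13, Tnfsfm13, Tnfsf12 and Tnfsf13os may have been divided among these genes, and the separate values are uncertain. On chromosome 8, Tnfsf13b, which encodes the B cell survival factor BAFF, was not called at day 5 (-0.26) or at 1 month (0.62, adjusted p = 0.0702), and passed at 1 month without the libraries set apart by GC (0.79, adjusted p = 0.038).

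Tnfsf10, which encodes TRAIL, an apoptosis-inducing ligand, was called at 1 month and not at day 5. At day 5 it lay at 4.23 to 6.89 CPM (median 5.11) in wild-type and 3.13 to 7.31 CPM (median 5.05) in E138A ears, a log2 fold change of -0.06 ± 0.26 (adjusted p = 0.881). At 1 month the ranges were 2.22 to 4.03 CPM (median 3.09) and 3.60 to 11.9 CPM (median 9.02), which overlapped in the lowest E138A library, and the log2 fold change was 1.44 ± 0.26 (adjusted p = 7.02e-05). Among the ligands of T cell costimulation, Tnfsf8, the CD30 ligand, was higher at both times with no overlap (0.96 and 0.56). At 1 month its groups nearly touched, at 2.138 CPM in the highest wild-type and 2.14 CPM in the lowest E138A library. Tnfsf18, the GITR ligand, was not called (0.90, adjusted p = 0.0971, and -0.44, adjusted p = 0.453).

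Of the 4 ligands that did not pass the filter, Tnfsf4, which encodes the OX40 ligand, had 1 count over the 6 wild-type and 33 over the 6 E138A libraries at day 5. The ratio of its rates was 31.0, with a 95% exact interval of 5.19 to 1260 that covers counting error only. At 1 month Tnfsf4 had 6 and 41 counts, a ratio of 7.20 (3.04 to 20.7). All E138A libraries lay above all wild-type libraries at both times, and a fit with no filter called it higher at day 5 (adjusted p = 0.000171) and 1 month (adjusted p = 0.000938). Fasl, the FAS ligand of cytotoxic lymphocytes, had 5 and 10 counts at day 5 and 15 and 14 at 1 month, at 0 to 0.205 CPM in every library. Cd40lg, the CD40 ligand of activated T cells, had 6 and 7 counts at day 5 and 11 and 28 at 1 month, reaching at most 0.462 CPM, and the fit with no filter did not call it or Fasl.

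**Figure D2:**
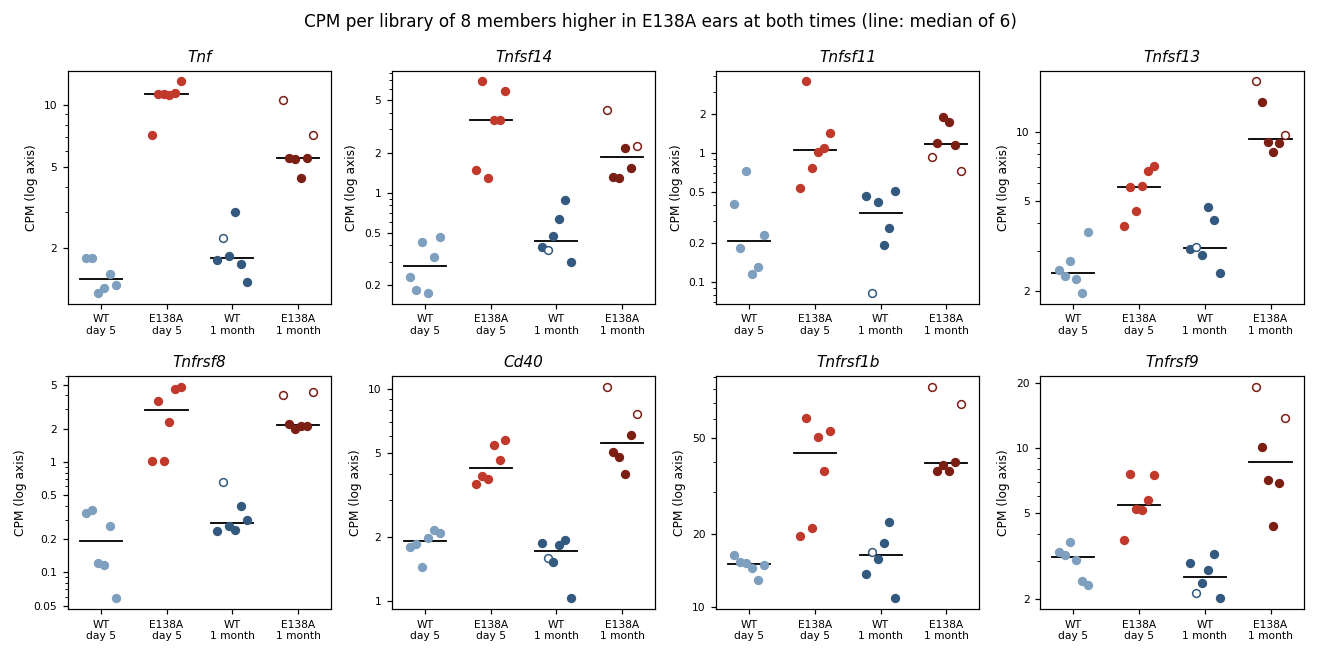
CPM on a log axis in each of 24 libraries for 8 members called higher in E138A ears at both times, with the median of each group of 6 as a line. Open circles are the 3 libraries of 1 month with a GC correlation above 0.4, and Tnf, Tnfsf14, Tnfsf13, Tnfrsf8, Cd40, Tnfrsf1b and Tnfrsf9 show no overlap between genotypes at either time, whereas Tnfsf11 overlaps at day 5.

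Among the 15 receptors grouped as TRAF-binding, which lack a death domain and are not decoys, 8 were called higher and 1 lower at day 5, and 10 higher and 1 lower at 1 month. Over all genes, 20.7% were called higher and 20.2% lower at day 5, and 25.5% and 21.5% at 1 month. Tnfrsf8, which encodes CD30, a receptor of activated lymphocytes, had the largest fold changes of the receptors. It lay at 0.0580 to 0.370 CPM (median 0.191) in wild-type and 1.01 to 4.81 CPM (median 2.94) in E138A ears at day 5, and at 0.235 to 0.657 CPM (median 0.281) and 1.97 to 4.28 CPM (median 2.17) at 1 month. The groups were apart at both times, by log2 fold changes of 3.73 ± 0.47 (13.3-fold, adjusted p = 1.29e-06) and 2.97 ± 0.42 (7.81-fold, adjusted p = 3.54e-06). Tnfrsf1b, which encodes TNFR2, the inducible TNF receptor of leukocytes, rose from 12.9 to 16.4 CPM (median 15.1) to 19.6 to 60.8 CPM (median 43.6) at day 5. At 1 month it rose from 10.8 to 22.6 CPM (median 16.3) to 36.4 to 81.9 CPM (median 39.3). Neither comparison overlapped, with log2 fold changes of 1.44 ± 0.26 (adjusted p = 0.000132) and 1.63 ± 0.26 (adjusted p = 1.93e-05), although E138A replicates 1 and 3 of day 5, at 19.6 and 21.3 CPM, stood nearer to the wild type than the other 4.

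Cd40, the receptor through which T cells activate antigen-presenting cells, rose from a median of 1.92 CPM (1.45 to 2.16) to 4.26 CPM (3.56 to 5.77) at day 5 and from 1.72 CPM (1.03 to 1.95) to 5.59 CPM (4.00 to 10.3) at 1 month. There was no overlap, and the log2 fold changes were 1.26 ± 0.21 (adjusted p = 5.68e-05) and 1.94 ± 0.21 (adjusted p = 1.14e-07). Tnfrsf9, which encodes the costimulatory receptor 4-1BB, rose from 2.32 to 3.69 CPM (median 3.12) to 3.74 to 7.62 CPM (median 5.47) at day 5, and from 2.01 to 3.23 CPM (median 2.54) to 4.34 to 19.3 CPM (median 8.64) at 1 month. Its groups did not overlap at either time, with log2 fold changes of 0.96 ± 0.27 (adjusted p = 0.00621) and 2.00 ± 0.27 (adjusted p = 2.06e-06). The 1-month value of Tnfrsf9 was 1.40 without the libraries set apart by GC and 1.19 without those set apart by Y-linked genes, still called in both. Tnfrsf18, which encodes GITR, a receptor prominent on regulatory T cells, was higher at day 5 without overlap (8.28 to 12.5 CPM, median 9.34, against 15.1 to 28.8 CPM, median 18.2), by 1.04 ± 0.23 (adjusted p = 0.000787). At 1 month Tnfrsf18 was not called (0.29 ± 0.22, adjusted p = 0.301), with ranges of 9.58 to 19.7 CPM (median 16.2) and 10.5 to 30.4 CPM (median 16.4), and its sign turned to -0.29 without the 4 libraries that stood apart in Y-linked genes. Tnfrsf4, which encodes OX40, was called at 1 month only (0.80, adjusted p = 0.00101, against 0.32, adjusted p = 0.186, at day 5), and not at 1 month without those 4 libraries (0.41, adjusted p = 0.0669).

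At day 5 Cd27, a costimulatory receptor of T cells, lay at 0.175 to 0.986 CPM (median 0.275) in wild-type ears. In E138A ears it lay at 0.174 to 0.358 CPM (median 0.198). Cd27 was not called at that time, with a log2 fold change of -0.60 ± 0.38 (adjusted p = 0.225). At 1 month it rose from 0.263 to 0.411 CPM (median 0.389) to 0.705 to 1.56 CPM (median 1.27), by 1.66 ± 0.32 (adjusted p = 0.000134) and with no overlap. The summed level of 5 B and plasma cell markers at 1 month was 0.743 to 1.50 CPM in wild-type ears and 1.70 to 4.84 CPM in E138A ears, with 1 of 5 markers passing the filter and that one higher, and at day 5 it ranged from 0.718 to 1.42 CPM in the wild type and from 0.511 to 1.10 CPM in E138A ears. The 6 T cell markers summed to 22.1 to 41 CPM in E138A and 30.6 to 38.6 CPM in wild-type ears at 1 month. That sum hid opposite changes, with 3 markers higher and 2 lower. On the log2 scale Cd4 (2.2), Cd8a (2.7) and Trac (1.4) rose, while Cd3e (-2.1) and Cd3g (-1.9) fell. At day 5 the T cell markers summed to 13.1 to 24 CPM in E138A and 28.2 to 33 CPM in wild-type ears, with 0 higher and 3 lower. The part of these cells in the result for Cd27 and the other lymphocyte receptors was not tested.

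The 3 receptors of BAFF and APRIL differed in direction. Tnfrsf13b, which encodes TACI, rose from 3.85 to 4.96 CPM (median 4.33) to 6.53 to 15.5 CPM (median 9.96) at day 5, and from 3.12 to 4.47 CPM (median 4.22) to 6.79 to 9.73 CPM (median 7.57) at 1 month. No libraries overlapped, and the log2 fold changes were 1.21 ± 0.17 (adjusted p = 5.27e-06) and 1.01 ± 0.17 (adjusted p = 2.59e-05). Tnfrsf13c, which encodes the BAFF receptor of mature B cells, fell at day 5 from 0.370 to 1.11 CPM (median 0.608) to 0.0573 to 0.818 CPM (median 0.149), by 1.38 ± 0.54 on the log2 scale (adjusted p = 0.0451). Its groups overlapped through E138A replicate 3, and the call held in 3 of 12 fits that each left out 1 library, being lost without wild-type replicates 1, 4, 5 or 6 or E138A replicates 1, 2, 4, 5 or 6, and was -2.27 without E138A replicate 3. At 1 month Tnfrsf13c was not called (-0.33 ± 0.49, adjusted p = 0.616), at 0.177 to 1.06 CPM (median 0.517) and 0.0521 to 0.795 CPM (median 0.471). Tnfrsf17, the APRIL receptor BCMA of plasma cells, was not called at either time (-0.20 and 0.37).

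Ltbr, the lymphotoxin beta receptor, and Tnfrsf14, the receptor HVEM, were both called higher at both times. Ltbr rose from 54.8 to 66.2 CPM (median 58.1) to 81.2 to 120 CPM (median 106) at day 5 without overlap, a log2 fold change of 0.80 ± 0.20 (adjusted p = 0.00208). At 1 month its ranges of 42.9 to 87.1 CPM (median 64.6) and 64.8 to 147 CPM (median 95.2) overlapped, with a log2 fold change of 0.68 ± 0.19 (adjusted p = 0.00555) that was 0.32 (adjusted p = 0.164) without the libraries set apart by GC and 0.07 (adjusted p = 0.763) without those set apart by Y-linked genes. Tnfrsf14 overlapped at both times, at 1.63 to 2.28 CPM (median 1.95) against 2.15 to 4.13 CPM (median 2.87) at day 5 and 1.59 to 3.16 CPM (median 2.60) against 2.87 to 4.95 CPM (median 3.97) at 1 month. Its log2 fold changes were 0.61 ± 0.21 (adjusted p = 0.023) and 0.71 ± 0.20 (adjusted p = 0.00567). The day 5 call of Tnfrsf14 was lost without wild-type replicate 4, E138A replicate 2 or E138A replicate 4, and the 1-month call without the libraries set apart by GC (adjusted p = 0.0731).

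Tnfrsf12a, which encodes the TWEAK receptor FN14, was not called at day 5 (0.45 ± 0.21, adjusted p = 0.0966), at 13.1 to 18.6 CPM (median 16.4) against 16.3 to 26.4 CPM (median 22.2). At 1 month Tnfrsf12a rose from 11.3 to 21.4 CPM (median 18.1) to 17.9 to 49.9 CPM (median 30.6), by 0.96 ± 0.21 (adjusted p = 0.000611), but not without the 4 libraries that stood apart in Y-linked genes (0.40, adjusted p = 0.108). Both pairs of ranges overlapped. Tnfrsf11a, which encodes RANK, lay lower in every E138A library at day 5 (18.1 to 22.4 CPM, median 19.7, against 23.3 to 31.2 CPM, median 28.0), yet its log2 fold change of -0.45 ± 0.21 was not called (adjusted p = 0.0837). A fit to the day 5 libraries alone called it (adjusted p = 0.00077). At 1 month it was -0.50 ± 0.21 (adjusted p = 0.0514), at 10.4 to 24.5 CPM (median 18.3) and 7.83 to 18.6 CPM (median 13.0), where RLE scaling (adjusted p = 0.0423) and DESeq2 (adjusted p = 0.0328) called it. Tnfrsf11a was not called at 1 month without the libraries set apart by GC (-0.42, adjusted p = 0.0667) or by Y-linked genes (-0.23, adjusted p = 0.205). Tnfrsf19, which encodes TROY, a receptor known from hair follicles and brain, was not called at day 5 (-0.19) and fell by 0.83 at 1 month (adjusted p = 0.000469).

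Among the 5 death domain receptors, 3 were called higher and 1 lower at day 5, and 2 higher and 1 lower at 1 month. Over all genes the shares higher and lower were 20.7% and 20.2% at day 5, and 25.5% and 21.5% at 1 month. A group of 5 is too small to compare with these shares. Tnfrsf1a, which encodes TNFR1, the widely expressed TNF receptor, rose from 147 to 181 CPM (median 158) to 244 to 346 CPM (median 306) at day 5 without overlap, by 0.91 ± 0.17 (adjusted p = 0.000117). At 1 month Tnfrsf1a overlapped at 144 to 221 CPM (median 208) and 191 to 394 CPM (median 285), with a log2 fold change of 0.61 ± 0.16 (adjusted p = 0.00337). That 1-month value was 0.36 (adjusted p = 0.0667) without the libraries set apart by GC and 0.15 (adjusted p = 0.407) without those set apart by Y-linked genes. Tnfrsf21, which encodes DR6, was higher at both times without overlap (0.56 and 0.57). Tnfrsf25, which encodes DR3, the receptor of TL1A, fell by 0.64 at day 5 (adjusted p = 0.00486) and by 0.64 at 1 month (adjusted p = 0.00372), the second time without overlap.

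Fas, the receptor of the FAS ligand, rose from 6.20 to 8.50 CPM (median 6.57) to 9.93 to 15.7 CPM (median 12.1) at day 5 without overlap, by 0.79 ± 0.18 (adjusted p = 0.00122). At 1 month Fas was not called (-0.26 ± 0.18, adjusted p = 0.254), at 5.87 to 11.2 CPM (median 8.95) and 3.79 to 9.40 CPM (median 7.78). It was called lower at 1 month with the library GC correlation as a covariate (-0.37, adjusted p = 0.00914). Of 12 fits that each left out 1 library, 0 called it. Tnfrsf10b, the mouse TRAIL receptor, was not called at either time (0.24 ± 0.13, adjusted p = 0.136, and 0.22 ± 0.13, adjusted p = 0.149). Its overlapping ranges were 7.74 to 11.1 CPM (median 9.23) and 9.21 to 12.7 CPM (median 11.1) at day 5, and 5.66 to 8.72 CPM (median 7.87) and 7.55 to 10.8 CPM (median 8.71) at 1 month.

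Of the 3 decoy receptors, Tnfrsf11b encodes osteoprotegerin, the soluble receptor that traps RANKL. Tnfrsf11b fell at day 5 from 5.88 to 9.08 CPM (median 8.18) to 1.99 to 6.09 CPM (median 3.81), by 0.97 ± 0.32 on the log2 scale (adjusted p = 0.0187), with overlap only through the lowest wild-type library, replicate 5. At 1 month Tnfrsf11b was not called (-0.66 ± 0.32, adjusted p = 0.0945), at 3.86 to 11.4 CPM (median 7.67) and 2.04 to 9.54 CPM (median 4.37). It was called lower at 1 month with the library GC correlation as a covariate (-0.91, adjusted p = 0.000678). Of 12 fits that each left out 1 library, 2 also called it lower. With limma voom its sign turned and it was not called. The 4 tested cartilage markers fell at day 5 and 3 of them at 1 month, with all 5 markers summing to at most 282 CPM in E138A ears at day 5 (median 182) against a wild-type median of 465 CPM, and to 139 to 296 against 299 to 731 CPM at 1 month. Their part in the level of Tnfrsf11b was not tested. Tnfrsf22 and Tnfrsf23, the mouse decoy TRAIL receptors, were not called at day 5 (0.21 and -0.22) and were higher at 1 month (0.49, adjusted p = 0.0107, and 0.83, adjusted p = 0.00828), but neither call held without the libraries set apart by GC (adjusted p = 0.0786 and 0.0616). Tnfrsf26, their neighbour on chromosome 7, rose from 2.09 to 3.47 CPM (median 2.60) to 1.96 to 11.6 CPM (median 8.56) at day 5, by 1.41 ± 0.31 (adjusted p = 0.000893). At 1 month Tnfrsf26 rose from 1.29 to 2.52 CPM (median 2.04) to 3.57 to 5.69 CPM (median 5.04), by 1.26 ± 0.31 (adjusted p = 0.00187), and only this later comparison was free of overlap.

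Set side by side, known ligand and receptor pairs showed that partners did not always move together. The pairs were a chosen list, which left out Tnfsf10 with its decoy receptors Tnfrsf22 and Tnfrsf23. Of the tested genes, 57.1% of ligands and 50% of receptors were called higher at day 5, and 64.3% and 62.5% at 1 month. Whether pairs were higher together more often than these shares give was not tested. Of 20 such pairs with both genes tested, 8 had both partners called higher at day 5 and 8 at 1 month. These pairs share genes, since 1 ligand can bind several receptors. They included Tnf with Tnfrsf1a and Tnfrsf1b, Tnfsf14 with Ltbr and Tnfrsf14, Tnfsf13 with Tnfrsf13b, Tnfsf8 with Tnfrsf8 and Tnfsf9 with Tnfrsf9. In 2 pairs at day 5 the ligand was higher and the receptor lower, Tnfsf15 with Tnfrsf25 and Tnfsf11 with Tnfrsf11b. At 1 month 3 pairs were called in opposite directions, Tnfsf15 with Tnfrsf25 and Lta with each TNF receptor. Without the 3 libraries set apart by GC, 4 pairs had both partners higher at 1 month and 1 pair, Tnfsf15 with Tnfrsf25, was opposite. Without the 4 set apart by Y-linked genes, 5 pairs had both higher and 1 was opposite. Pairs with both higher in both settings were Tnf with Tnfrsf1b, Tnfsf8 with Tnfrsf8, and Tnfrsf13b with Tnfsf13 and with Tnfsf13b.

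Receptors had a higher median level than ligands in every group on a scale of CPM per kb of exon, which allows genes to be compared. The classes overlapped, since the highest ligand, Tnfsf12, lay above the receptor median in every group. In wild-type ears at day 5 the median level was 0.385 CPM per kb over the 18 ligand genes and 2.19 CPM per kb over the 24 receptor genes. In E138A ears at day 5 the medians were 0.956 and 2.27 CPM per kb, and at 1 month they were 0.394 and 1.71 in wild-type and 0.634 and 2.80 in E138A ears. Tnfrsf1a had the highest level of any member in every group, at 61.5 ± 4.76 CPM per kb (SD, n = 6) in wild-type and 115 ± 16.0 in E138A ears at day 5. Tnfsf12 had the highest level among ligands in every group, at 9.01 ± 0.543 and 7.39 ± 1.73 CPM per kb at day 5. Tnf, at 0.906 ± 0.156 CPM per kb in wild-type ears, reached 6.66 ± 1.21 CPM per kb in E138A ears at day 5, within the spread of Tnfsf12, and Tnfsf15 reached 5.04 ± 3.34 from 0.180 ± 0.0452.

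**Figure D3:**
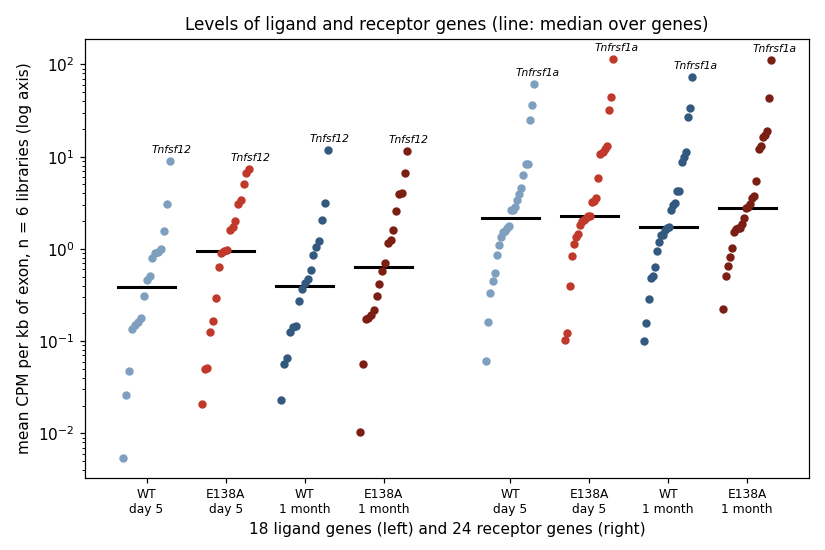
Mean level per gene (n = 6 libraries) in CPM per kb of exon on a log axis, for the 18 ligand genes and the 24 receptor genes in each group, with the median over genes as a line and the highest gene named. Cd70 is at 0 in both wild-type groups and is not drawn there, and the receptor medians of 1.71 to 2.80 lie above the ligand medians of 0.385 to 0.956.

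The genotype effect differed between the times for 5 members. The test of the difference, 1 month minus day 5, called 2 members higher and 3 lower, beside 4.68% of all genes called higher and 4.09% lower, so the members' shares were near those of all genes. Tnf had the smaller effect at 1 month by 1.18 ± 0.30 (adjusted p = 0.0139), Tnfsf15 by 3.08 ± 0.71 (adjusted p = 0.00713) and Fas by 1.05 ± 0.26 (adjusted p = 0.0102), as log2 differences of -1.18, -3.08 and -1.05. Tnfsf10 and Cd27 had the larger effect at 1 month, by 1.50 ± 0.36 (adjusted p = 0.0102) and 2.26 ± 0.50 (adjusted p = 0.00486). Each of these 5 calls held in all 24 fits that left out 1 library, and without the 3 libraries set apart by GC the differences were -1.46, -2.90, -0.98, 1.69 and 2.16 for Tnf, Tnfsf15, Fas, Tnfsf10 and Cd27. Tnfsf14 (-1.56, adjusted p = 0.126) and Tnfrsf18 (-0.75, adjusted p = 0.171) were not called, but passed without those 3 libraries (-2.08, adjusted p = 0.0342, and -1.03, adjusted p = 0.036).

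**Figure D4:**
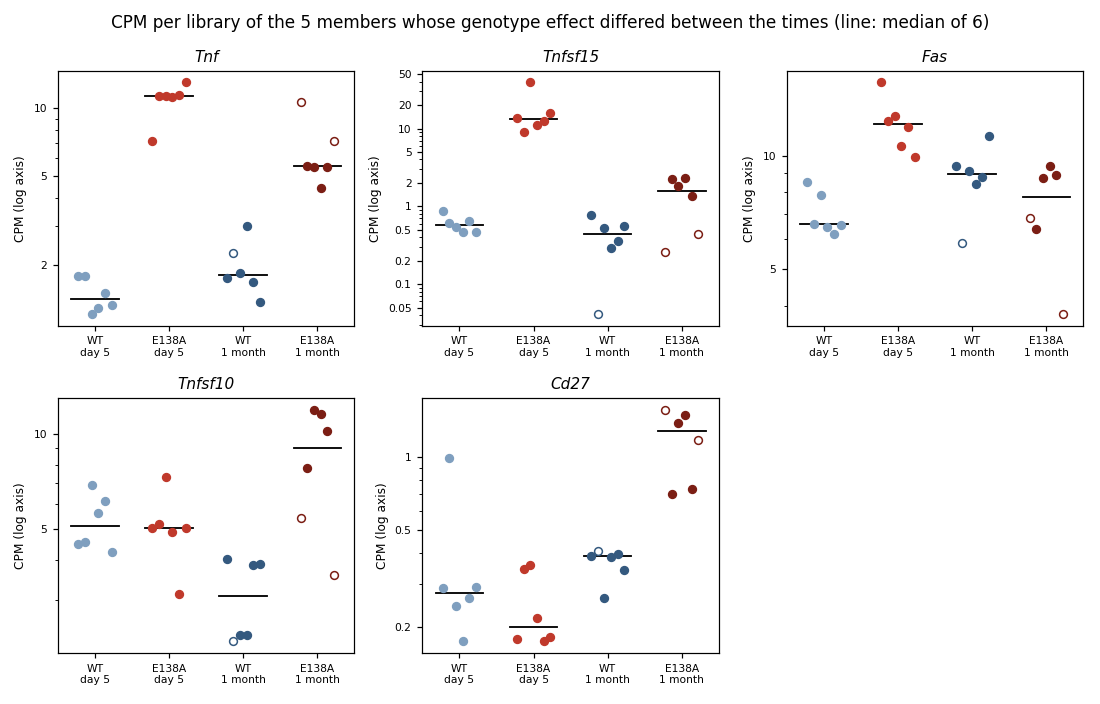
CPM on a log axis in each of 24 libraries for the 5 members whose genotype effect differed between day 5 and 1 month, with the median of 6 as a line and the 3 libraries with a GC correlation above 0.4 as open circles. Tnf and Tnfsf15 are farther above wild type at day 5, Fas is above wild type at day 5 alone, and Tnfsf10 and Cd27 are above wild type at 1 month.

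In wild-type ears few members were called between the times by edgeR. Of the 39 members 1 was called higher at 1 month than at day 5 and 0 lower by edgeR, beside 6.28% and 2.81% of all genes. The member was Tnfrsf21, with a log2 difference of 0.42 ± 0.09 (adjusted p = 0.00491), and its lowest 1-month library, at 37.0 CPM, lay above its highest day 5 library, at 36.1 CPM. At an unadjusted p below 0.05, 2 members were higher and 5 lower. DESeq2 called 2 higher and 1 lower, and limma voom 7 higher and 5 lower. The 6 that limma voom added in the higher direction were Tnf, Tnfsf13, Tnfrsf14, Tnfrsf18, Tnfrsf1a and Fas.

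The E138A libraries were not alike in how far the members rose. Among the 21 members called higher at day 5, E138A replicate 1 was the lowest of the 6 E138A libraries for 14 and replicate 3 for 5, while replicates 2 and 6 were each the highest for 7. Among the 25 called higher at 1 month, replicate 1 was the highest for 13 and replicate 6 for 7, both with a GC correlation above 0.4, and replicate 4 was the lowest for 10. Markers of several leukocyte types moved with the genotype. The 6 neutrophil markers lay at day 5 between 8.88 and 13 CPM in sum in the wild type and between 1930 and 8700 CPM in E138A ears. At 1 month the sums were 12.2 to 50.3 and 3190 to 7120 CPM, with 5 of 5 tested markers higher at both times. Most of the E138A sum came from S100a8 and S100a9, with means of 1980 and 2830 CPM at day 5. The means of Cxcr2, Csf3r and Mmp8 in those libraries were 85.2, 61.6 and 11 CPM. The 6 monocyte and macrophage markers summed to 144 to 167 and 156 to 504 CPM at day 5, with 5 higher, and to 121 to 231 and 278 to 552 CPM at 1 month, with 6 higher. Of 6 dendritic cell markers, 2 were higher at day 5 and 5 at 1 month, where their sum ranged from 38.6 to 50.4 CPM in the wild type and from 71.2 to 102 CPM in E138A ears. Of 5 γδ T cell markers, 4 were lower and 1 higher at each time, and their sum was 26.5 to 45.6 CPM in wild-type against 8.90 to 20.5 CPM in E138A ears at day 5, and 33.2 to 43 against 3.83 to 8.12 CPM at 1 month. The marker that rose was Il17a, with a mean of 0 CPM in both wild-type groups. Its E138A means were 1.33 CPM at day 5 and 0.854 CPM at 1 month. Cd3e is both in this list and among the T cell markers. None of these markers was at 0 in every library, and their part in the levels of the TNF superfamily was not tested.

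**Figure D5:**
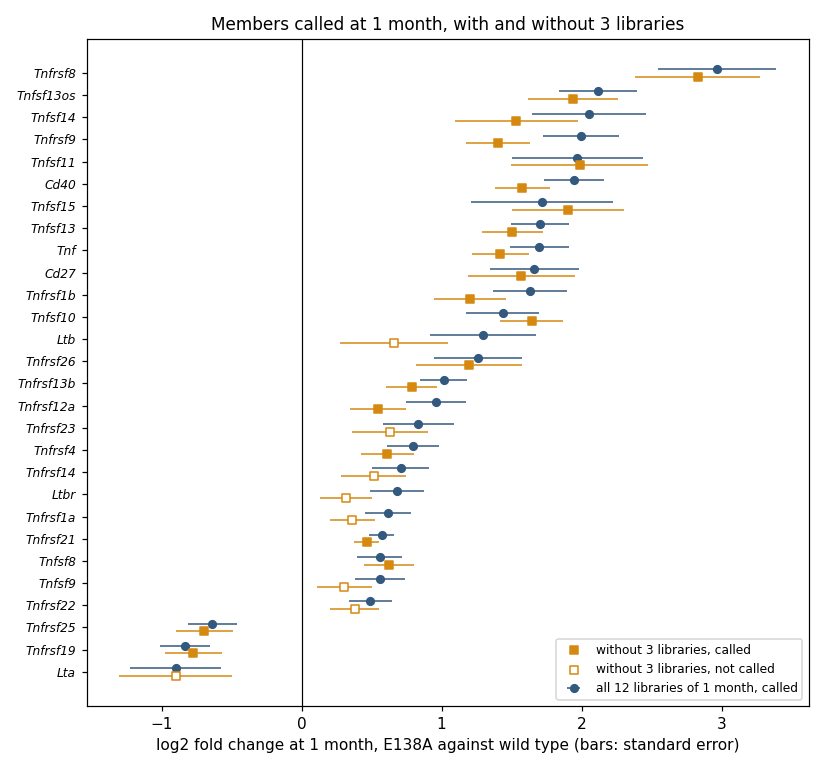
Log2 fold change at 1 month (x axis, bars are standard errors) of the 28 members called there, with all 12 libraries of that time (blue circles) and without the 3 with a GC correlation above 0.4 (orange squares, open where not called). Of the 28 calls, 8 are open, among them Ltb, Ltbr and Tnfrsf1a, while Tnfrsf8 (2.83), Tnfsf11 (1.99) and Tnfsf10 (1.64) keep their calls.

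Downstream of the receptors, 24 genes for adaptors and proximal signalling were tested. At each time 15 were higher, 1 was lower and 8 were not called, with median log2 fold changes of 0.49 at day 5 and 0.41 at 1 month. Over all genes tested, 20.7% were higher and 20.2% lower at day 5, and 25.5% and 21.5% at 1 month. The medians over all genes were -0.02 and 0.05. Tnfaip3, which encodes the ubiquitin-editing inhibitor A20, rose by 2.58 ± 0.12 at day 5 (adjusted p = 7.05e-13) and 0.77 ± 0.12 at 1 month (adjusted p = 9.14e-06). Birc3, which encodes the ubiquitin ligase cIAP2, rose by 1.43 ± 0.10 (adjusted p = 3.45e-10) and 0.92 ± 0.10 (adjusted p = 9.33e-08). Traf1, an adaptor of TNFR2 and CD30, rose by 1.67 ± 0.17 (adjusted p = 1.03e-07) and 1.86 ± 0.17 (adjusted p = 1.1e-08), and Ripk3, a kinase of necroptosis, by 1.56 ± 0.19 (adjusted p = 8.42e-07) and 1.51 ± 0.19 (adjusted p = 6.6e-07). Traf5 was the only one of the 24 called lower, at both times (-0.60, adjusted p = 0.00149, and -0.41, adjusted p = 0.0191). Among 5 relatives outside the naming rule, 3 were lower and 1 higher at each time. Ngfr, the neurotrophin receptor p75, fell by 2.09 at day 5 and 1.66 at 1 month, Edar, the ectodysplasin receptor of skin appendages, by 1.37 and 1.34, and its ligand gene Eda by 0.70 and 0.78. Relt rose by 1.48 and 0.99, and Eda2r was not called (-0.19 and -0.25).

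Promoters were read from RefSeq (GRCm38.p6) as windows of 300 bases, from 250 before to 50 after a start, and 32 of the 43 members had one. The NF-κB consensus, 10 bases long and searched on both strands, is shown because the TNF family holds many textbook NF-κB target genes. It was found in the windows of 3 members, all called higher at day 5, Ltb, Tnfrsf8 and Tnfrsf9, which is 9.38% of the 32, beside 5.14% of 27025 genes. Each stretch is written 5′ to 3′ on the gene's strand, in lower case with the 10 matching bases in capitals. In Tnfrsf8 and Ltb the match lay on the opposite strand, so their capitals fit the consensus only as the reverse complement. The match in Tnfrsf8 ended at position -159 from the start, that in Tnfrsf9 at -33, in 1 of its 2 windows, where a second match overlapped it by all but 1 base, and that in Ltb at -78.
Tnfrsf8 (chr4:145315313-145315342, minus strand): tcaaaacgcaGGGGAGCCCCctgcgtgcgt
Tnfrsf9 (chr4:150927947-150927976, plus strand): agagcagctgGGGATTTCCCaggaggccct
Ltb (chr17:35194410-35194439, plus strand): aagggtgttcGGAAAGTCCCcgggcagggg
Of the 17 members with a window that were called higher at day 5, 3 held a match, and 0 of the 12 that were not called and 0 of the 2 called lower did. The windows of Tnf, Tnfsf14 and Tnfsf15 held none of these letters. A match describes the letters only, and a window without one says nothing about sites elsewhere.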

How the data were processed

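PolyA-selected RNA of whole ears was read from 1 end (HiSeq4000), according to the labels. The authors deposited RSEM expected counts per Ensembl gene without scaling. The submitters' processing notes name RSEM 1.3.0, STAR 2.5.2, DESeq2 1.14.1 and GRCm38. The gene annotation they used is not given in these sources. Values were rounded, 6.71% of them having a fractional part. Symbols, coordinates and exon lengths came from GENCODE M21, which held 51633 of the 51912 identifiers.

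Counts were fitted in R 4.3.3 with edgeR 4.0.16 (filterByExpr by group, TMM factors, robust quasi-likelihood F tests, 2-sided, 1 coefficient per group over all 24 libraries), and p-values were adjusted by Benjamini-Hochberg over 17287 genes. The standard error is the log2 fold change divided by the square root of F. CPM uses TMM-scaled library sizes. Scripts were tested on simulated data. Alternatives were DESeq2 1.42.0, limma 3.58.1 (voom with quality weights), other scalings and filters, and libraries left out. Replicates of a group differed by more than sampling noise (lowest chi-square per degree of freedom 4.86 over 60 pairs).

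Members and lists were chosen with earlier results of these data known. Values per group are given for members called in a genotype comparison, or in its difference over time, whose log2 fold change was 1 or more in either direction, and for 19 members fixed by name, Tnf, Lta, Ltb, Fas and Cd40 among them. Other members are given by calls and log2 fold changes, and listed adaptors as the 4 with the smallest adjusted p at day 5 and any that fell.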

Additional observations from a re-analysis of the deposited data

Results flagged for a closer look

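In 6 of 108 groups of 6 libraries, 1 library stood far from the others, measured as its gap to the nearest library divided by the range of the group. Chance gives such a gap in about 1 in 20 groups. The gap was 0.654 for Lta in wild-type replicate 2 of day 5 (highest), 0.746 for Cd27 in the same library (highest) and 0.657 for Tnfrsf11b in wild-type replicate 5 of day 5 (lowest). It was 0.751 for Tnf in E138A replicate 1 of day 5 (lowest), 0.626 for Tnfsf15 in E138A replicate 3 of day 5 (highest) and 0.635 for Tnfrsf13c in E138A replicate 1 of 1 month (lowest). The genotype effect at 1 month differed from that at day 5, by the test of the difference itself, for Tnf (-1.18), Tnfsf15 (-3.08), Fas (-1.05), Tnfsf10 (1.50) and Cd27 (2.26) on the log2 scale.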

How the results depend on the processing

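The counts of members called higher in E138A ears stayed within 1.5 times the main count under every alternative, at 19 to 24 at day 5 and 19 to 26 at 1 month. Members called lower at day 5 numbered 6 with limma voom, against 3. At 1 month 6 were lower with the library GC correlation as a covariate (this setting and leaving out libraries by GC were chosen after seeing the data), and 2 to 5 when 1 library was left out, 5 without wild-type replicate 2. For the difference between the times, members higher numbered 6 with limma voom, 1 with at least 1 CPM in 6 libraries and 4 with the GC covariate, against 2. Members lower there numbered 10 with limma voom, 7 without the libraries that stood apart in Y-linked genes, 5 with the GC covariate, 5 without the libraries with a GC correlation above 0.4, and 3 to 5 when 1 library was left out, 5 without E138A replicate 1 of 1 month, against 3. For wild type over time, members higher numbered 2 with total counts only, 2 with DESeq2, 7 with limma voom, 2 in a fit to those libraries alone, 3 without the libraries apart in Y-linked genes, 2 with the GC covariate, 3 without those with a GC correlation above 0.4, and 1 to 2 with 1 library left out, 2 without wild-type replicate 1 of 1 month, against 1. Members lower there numbered 1 with DESeq2, 5 with limma voom, 1, 2, 1 and 1 in the same 4 other settings, and 0 to 2 with 1 library left out, 2 without that same library, against 0.

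With the replicate block, 19 members were higher and 2 lower at day 5, 21 higher and 2 lower at 1 month, and 1 higher and 0 lower for the difference between the times, where Cd27 kept its call and Tnf (-1.18, adjusted p = 0.0961), Tnfsf15 (-3.06, 0.0699), Fas (-1.07, 0.051) and Tnfsf10 (1.45, 0.0885) lost it. Same-numbered libraries did not deviate together: their correlation lay between -0.158 and 0.0514 at day 5 and between -0.733 and 0.258 at 1 month, and 0 of 6 wild-type libraries at either time was closest to its own number.

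Apart from fits that left out 1 library, the genotype differences that turned sign at either time among members with values per group were not called: Lta at day 5 (0.0022), Tnfrsf13c (0.021), Tnfrsf11b (0.026) and Tnfrsf18 (-0.31) at 1 month with limma voom, Tnfrsf18 at 1 month without the libraries apart in Y-linked genes (-0.29), and Tnfsf12 at 1 month with the GC covariate (0.064). Of all 39 tested members, Tnfrsf17 also turned at 1 month without the libraries apart in Y-linked genes (-0.077). The difference between the times turned for 7 members without the libraries set apart by GC and 9 without those apart in Y-linked genes, and wild type over time for 10 with the GC covariate and 2 in each of these settings, 0 of them called. The cause was not tested. Members near or below 0.5 CPM, such as Lta, Tnfrsf13c, Fasl and Cd40lg, are limited by depth. So are low wild-type levels such as those of Tnfrsf8, Tnfsf14 and Tnfsf11. Over the 6 wild-type libraries of day 5 these genes had 21, 30 and 30 counts, and their fold changes rest on these few counts.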
